A study of Mus musculus with 18 samples.

Results

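The genes described here coat lipid droplets or act in the breakdown of the triglyceride stored in them. They are 10 of the 37303 genes in the deposited expression table of a mouse liver RNA-Seq experiment: Plin2, Plin4, Plin5, Cidea, Cideb, Cidec, G0s2, Pnpla2, Pnpla3 and Lipe. They were chosen by gene name and not by their values. The experiment asked how the liver responds to asparaginase (ASNase), an enzyme drug that depletes asparagine, and what that response needs from GCN2 and ATF4. GCN2, encoded by Eif2ak4, is a kinase that senses amino acid shortage, and ATF4 is the transcription factor made in greater amount once GCN2 has phosphorylated eIF2.

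The 18 samples were livers of WT, Gcn2-/- and Atf4-/- mice on a C57BL/6J background, in 6 groups of 3 mice. The deletions were carried in the whole body, so a liver value can follow from loss of the gene elsewhere. Each strain received ASNase at 3 IU per gram body weight or its vehicle PBS, as 8 daily intraperitoneal injections. By the labels the mice were 8 to 16 weeks old and livers were taken 7.5 h after the last injection. By the labels, WT PBS and both Gcn2-/- groups held 1 male and 2 females each, and WT ASNase and both Atf4-/- groups held 2 males and 1 female each. The share of males thus differed between WT ASNase and WT PBS, between Gcn2-/- and WT under ASNase, between Atf4-/- and WT under PBS, and between Atf4-/- and Gcn2-/- under either treatment. Comparisons of ASNase responses with WT carry the WT shift too, since each mutant strain kept its share of males under both treatments. Sex and group are partly confounded in all of these, and the part of sex in any value was not tested.

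The table gives a single value per gene and group, the FPKM (fragments scaled for transcript length and library size) that the authors' Cuffdiff run estimated from the 3 libraries together, with a lower and an upper bound. These bounds are given in parentheses after each value. Values of single mice are not used here, so no difference has a replicate check and no p-value is given. The FPKM values carry no read counts. Among genes over 3 FPKM the median distance from a value to its bound was 51.3 to 54.2% of the value, depending on the group. Intervals of this width separate only large differences.

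Markers of hepatocytes were abundant but uneven over the groups. With PBS their summed level was 21685 FPKM in WT, 24916 FPKM in Gcn2-/- and 18788 FPKM in Atf4-/- livers. With ASNase it was 16947, 11673 and 14222 FPKM in the same strains. Alb has no valid estimate in any group, and the Atf4-/- PBS sum also lacks Serpina1a. Values for whole genes are no full check of the genotypes, and the study's own checks of the deletions were not analysed here. Eif2ak4 had 2.31 and 2.96 FPKM in Gcn2-/- livers and 3.04 and 2.39 FPKM in WT livers (PBS and ASNase). Atf4 had 32.3 and 29.3 FPKM in Atf4-/- livers and 50.4 and 63.1 FPKM in WT livers. The intervals of WT and mutant livers overlapped for both genes, so the genotypes rest on the labels.

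Triglyceride in a hepatocyte is stored in lipid droplets, whose surface is covered by perilipins and by the CIDE proteins, which let droplets grow by exchange of lipid. The stored fat is released stepwise: ATGL, encoded by Pnpla2, removes the first fatty acid, hormone-sensitive lipase (Lipe) the next and monoglyceride lipase (Mgll) the last. ATGL is activated by CGI-58 (Abhd5) and inhibited by the small protein G0S2. Several of these genes are known targets of the nuclear receptor PPARα, which is active in the fasting liver.

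The sequences just upstream of the 3 genes with at least 2 pairs of groups whose intervals did not overlap are shown for reference. They come from the RefSeq promoter windows of build GRCm38.p6, which held 9 of the 10 genes in 12 windows, and Cidea was not among them. Only bases upstream of both the RefSeq and the GENCODE start were kept, and all 3 genes lie on the minus strand, printed 5′ to 3′. G0s2 is at chr1:193273218-193273438, Plin2 at chr4:86670061-86670309 and Plin5 at chr17:56117597-56117798. Capitals mark matches to AGGTCA (the core of the motif bound by PPARα and other nuclear receptors), CCAAT (the CCAAT box) or GGGCGG (the GC box), on either strand.
G0s2: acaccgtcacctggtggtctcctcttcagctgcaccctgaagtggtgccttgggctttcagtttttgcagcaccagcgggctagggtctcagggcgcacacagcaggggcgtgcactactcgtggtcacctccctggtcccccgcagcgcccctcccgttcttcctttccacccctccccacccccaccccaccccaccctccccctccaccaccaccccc
Plin2: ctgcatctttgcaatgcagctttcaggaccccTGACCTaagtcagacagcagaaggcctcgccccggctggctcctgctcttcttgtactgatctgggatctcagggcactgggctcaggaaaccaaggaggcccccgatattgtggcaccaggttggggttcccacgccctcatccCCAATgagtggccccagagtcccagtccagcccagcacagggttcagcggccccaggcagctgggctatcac
Plin5: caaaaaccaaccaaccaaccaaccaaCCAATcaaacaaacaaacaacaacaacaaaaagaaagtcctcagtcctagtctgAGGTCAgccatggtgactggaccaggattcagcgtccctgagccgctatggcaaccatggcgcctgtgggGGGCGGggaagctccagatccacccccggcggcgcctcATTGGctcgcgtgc

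In the 250 bases upstream of the RefSeq start, AGGTCA was found in Plin2 and Plin5, at 218 to 213 and 170 to 165 bases before the start. It was present in 14.0% of 32851 promoter windows. CCAAT was found in Plin2, Plin4, Plin5 and Pnpla3 (33.8% of all windows). GGGCGG was found in 6 of the genes, Cideb, G0s2, Lipe, Plin5, Pnpla2 and Pnpla3 (32.7% of all windows); in G0s2 the match lay 18 to 13 bases before the RefSeq start, inside the GENCODE transcript and so outside the stretch shown. TGATGNAA, the core of the amino acid response element bound by ATF4, was in 3.45% of all windows and in none of these 12. A match is a description of letters and does not show binding.

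By their FPKM, which is scaled for length, the 10 genes spanned a wide range in WT livers given PBS. Plin2 and Cideb led with 249 and 190 FPKM and made up 44.8% and 34.3% of the summed level of the 10 genes. G0s2 (48.5 FPKM), Pnpla2 (38.3 FPKM) and Plin5 (18.3 FPKM) followed. Lipe had 5.27 FPKM, and Cidec (2.31 FPKM), Plin4 (1.76 FPKM), Pnpla3 (0.814 FPKM) and Cidea (0.300 FPKM) were low. The summed level of all 10 went from 555 FPKM with PBS to 590 FPKM with ASNase in WT, from 711 to 575 FPKM in Gcn2-/- and from 466 to 249 FPKM in Atf4-/- mice. Plin2 made the greatest single share in each group but the last, in which Cideb (85.3 FPKM) stood above Plin2 (56.6 FPKM) and Pnpla2 (79.2 FPKM) did as well.

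**Figure D1:**
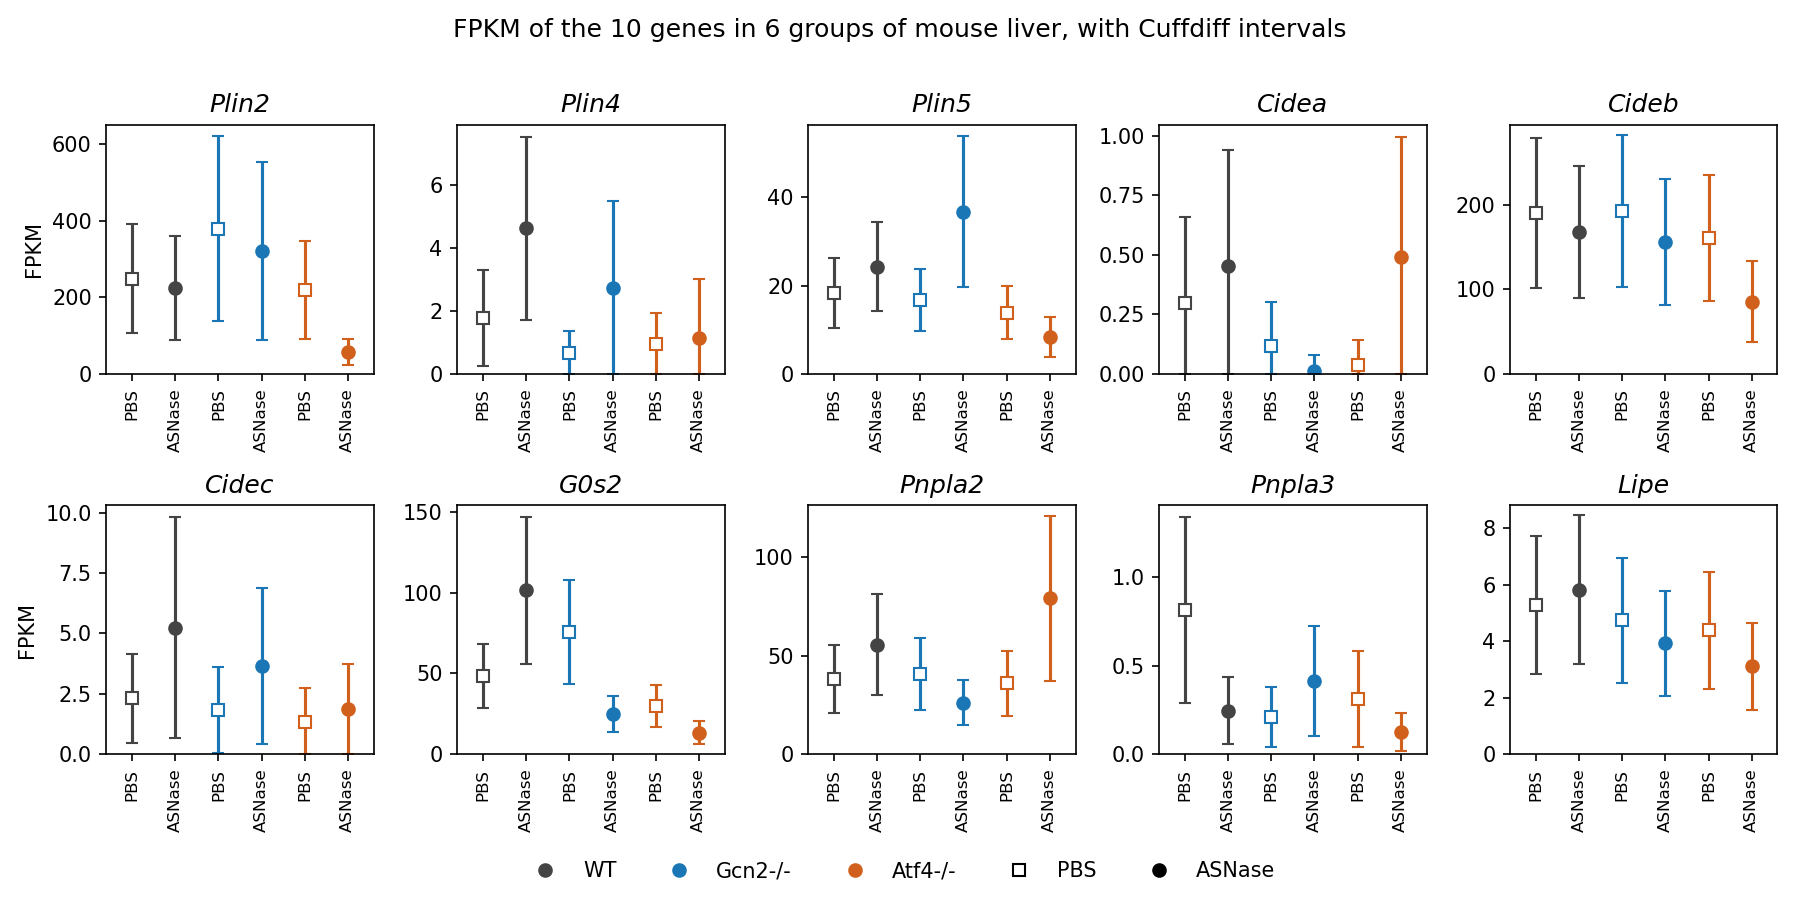
FPKM of each of the 10 genes (linear axes from 0, a separate scale for each gene) in the 6 groups, with the bounds of the authors' Cuffdiff interval as bars; open squares are PBS and filled circles ASNase. G0s2 is highest in WT livers given ASNase (102 FPKM) and lowest in Atf4-/- livers given ASNase (13.3 FPKM), where Plin2 and Plin5 are also at their lowest and Pnpla2 at its highest.

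Within a gene, the levels of the 6 groups were put in order, and for none of the 10 genes did neighbours in that order have separate intervals. Of the 15 pairs of groups, the intervals were separate in 7 pairs for G0s2, in 2 for Plin2 and for Plin5, in 1 for Plin4 and for Pnpla3, and in 0 for Cidea, Cideb, Cidec, Pnpla2 and Lipe. The same count was not made over all genes, so it ranks the 10 only among themselves. Positions given with the genes are the GENCODE gene bounds on GRCm38. Here a gene is called different between groups when either value was over 3 FPKM, both had a valid estimate above 0, log2(FPKM + 0.1) differed by more than 1.5 and the intervals did not overlap. Differences are on that log2 scale, which understates the change of low genes. Their error combines those of the values in quadrature, taking the distance from a value to its bound as its error.

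Plin2 (ENSMUSG00000028494, chr4:86648386-86670060, minus strand) encodes the main perilipin of the hepatocyte droplet, a protein that is stable only while bound to fat. WT livers had 249 FPKM (107 to 390) with PBS and 224 FPKM (89.3 to 359) with ASNase. In Gcn2-/- livers it was 378 FPKM (137 to 620) with PBS and 321 FPKM (88.1 to 553) with ASNase. In Atf4-/- livers it was 218 FPKM (90.1 to 347) with PBS and 56.6 FPKM (22.2 to 91.1) with ASNase. The Atf4-/- ASNase value was the lowest of the 6, with an interval that overlapped those of 3 other groups at its upper end. Its log2 difference from Atf4-/- PBS was -1.95 ± 1.22, or 0.259 times the PBS level, but the intervals overlapped narrowly, 91.1 against 90.1 FPKM, so that Plin2 was not called. It was called with the combined error in place of the interval condition, without that condition and with median-ratio scaling, where 10.4%, 12.2% and 7.37% of all eligible genes were. The intervals of Atf4-/- ASNase were separate from those of WT PBS and Gcn2-/- PBS. In WT and Gcn2-/- livers the ASNase difference was -0.15 ± 1.19 and -0.24 ± 1.39.

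Plin5 (ENSMUSG00000011305, chr17:56111601-56117596, minus strand) encodes the perilipin that tethers droplets to mitochondria and binds ATGL and CGI-58. The WT livers had 18.3 FPKM (10.3 to 26.2) with PBS and 24.2 FPKM (14.1 to 34.3) with ASNase. The Gcn2-/- livers had 16.8 FPKM (9.66 to 23.9) with PBS and 36.7 FPKM (19.6 to 53.9) with ASNase. The Atf4-/- livers had 13.8 FPKM (7.86 to 19.8) with PBS and 8.34 FPKM (3.86 to 12.8) with ASNase. The PBS values of the 3 strains lay close together, and the ASNase values were above PBS in WT and Gcn2-/- livers and below it in Atf4-/- livers. Within a strain the difference came to 0.41 ± 0.86 in WT, 1.13 ± 0.91 in Gcn2-/- and -0.72 ± 0.98 in Atf4-/- livers, none of them called. Between strains under ASNase, Plin5 was lower in Atf4-/- than in WT livers (-1.53 ± 0.97) and than in Gcn2-/- livers (-2.13 ± 1.02), both called. The call against WT was lost with a pseudocount of 1.

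Plin4 (ENSMUSG00000002831, chr17:56100591-56109803, minus strand), a perilipin best known from adipocytes and muscle, was low in liver and over 3 FPKM in 1 group alone. It had 1.76 FPKM (0.236 to 3.28) in WT PBS, 4.61 FPKM (1.71 to 7.51) in WT ASNase, 0.661 FPKM (0 to 1.37) in Gcn2-/- PBS and 2.72 FPKM (0 to 5.47) in Gcn2-/- ASNase livers. In Atf4-/- livers it had 0.956 FPKM (0 to 1.92) with PBS and 1.13 FPKM (0 to 3.01) with ASNase. The ASNase difference came to 1.34 ± 1.48 in WT, 1.89 ± 1.91 in Gcn2-/- and 0.22 in Atf4-/- livers, the last with the widest error, and the intervals overlapped in each. With 4 of 6 lower bounds at 0, these differences were within the error of the values.

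Cideb (ENSMUSG00000022219, chr14:55754050-55758458, minus strand) is the CIDE protein of hepatocytes and takes part in loading VLDL with lipid. With PBS it had 190 FPKM (102 to 279) in WT, 192 FPKM (102 to 282) in Gcn2-/- and 160 FPKM (86.2 to 235) in Atf4-/- livers. With ASNase it had 168 FPKM (90.2 to 245), 156 FPKM (81.6 to 230) and 85.3 FPKM (37.4 to 133) in the same strains. ASNase values were below PBS values in all 3 strains, by -0.18 ± 0.95, -0.30 ± 0.96 and -0.91 ± 1.05 in WT, Gcn2-/- and Atf4-/- livers, and no pair of groups had separate intervals. By GENCODE on GRCm38, 76.3% of the exon bases of Cideb also belong to Nop9 on the other strand. The library kit does not keep strand, so reads of these genes cannot be told apart there, and Nop9 was listed at 5.03 to 7.28 FPKM with a lower bound of 0 in every group.

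Cidec (ENSMUSG00000030278, chr6:113424634-113435760, minus strand), which drives the large droplets of fat cells and of fatty liver, had 2.31 FPKM (0.454 to 4.16) in WT, 1.82 FPKM (0.0483 to 3.59) in Gcn2-/- and 1.34 FPKM (0 to 2.76) in Atf4-/- livers with PBS. With ASNase it had 5.23 FPKM (0.650 to 9.81), 3.65 FPKM (0.410 to 6.89) and 1.85 FPKM (0 to 3.74) in the same strains. Its ASNase value was above its PBS value in each strain, by 1.15 ± 1.66, 0.97 ± 1.82 and 0.44 ± 1.96, and all intervals overlapped. Cidea, the CIDE protein of brown fat, was at 0.0128 to 0.491 FPKM with every lower bound at 0, and is given no fold.

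G0s2 (ENSMUSG00000009633, chr1:193272161-193273217, minus strand) differed more between groups than any other of the 10 genes by count of separate pairs. Its level in WT livers was 48.5 FPKM (28.4 to 68.6) with PBS and 102 FPKM (56.2 to 147) with ASNase. The Gcn2-/- livers had 75.7 FPKM (43.4 to 108) with PBS and 25.1 FPKM (14.0 to 36.2) with ASNase. The Atf4-/- livers had 30.0 FPKM (17.1 to 42.9) with PBS and 13.3 FPKM (6.25 to 20.3) with ASNase. With ASNase the value was above PBS in WT livers and below it in both mutant strains. G0s2 fell after ASNase in Gcn2-/- livers (-1.59 ± 0.88, 0.332 times the PBS level, called). It was not called in WT livers (1.07 ± 0.88) or in Atf4-/- livers (-1.17 ± 0.98), where the intervals overlapped.

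Under ASNase, G0s2 was lower than in WT in Gcn2-/- livers (-2.01 ± 0.91, 0.247 times) and in Atf4-/- livers (-2.93, 0.131 times), both called. Under PBS it was 0.64 ± 0.86 above WT in Gcn2-/- livers and -0.69 ± 0.86 from WT in Atf4-/- livers, with overlapping intervals. The interval of Atf4-/- PBS lay wholly below that of Gcn2-/- PBS, but the difference of -1.33 ± 0.87 was under the fold limit. The sizes of the ASNase changes also differed: the change in Gcn2-/- livers minus that in WT livers was -2.65 ± 1.25, and the change in Atf4-/- livers minus that in WT livers -2.23 ± 1.32. Both were over 1.5 and over their error. The changes in the mutant strains differed from each other by 0.42 ± 1.32, which is within the error and does not show that they were alike.

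Pnpla2 (ENSMUSG00000025509, chr7:141455198-141460743, plus strand), the gene of ATGL and so of the enzyme that G0S2 inhibits, had 38.3 FPKM (20.9 to 55.7) with PBS and 55.6 FPKM (30.0 to 81.2) with ASNase in WT livers. The Gcn2-/- livers had 40.7 FPKM (22.3 to 59.1) with PBS and 26.2 FPKM (14.7 to 37.6) with ASNase. The Atf4-/- livers had 36.0 FPKM (19.5 to 52.5) with PBS and 79.2 FPKM (37.2 to 121) with ASNase. The intervals of the 3 strains overlapped under PBS, and the values of the mutant strains lay furthest apart under ASNase. The ASNase difference came to 0.54 ± 0.93 in WT, -0.64 ± 0.91 in Gcn2-/- livers and 1.14 ± 1.01 in Atf4-/- livers, none called. The change in Atf4-/- livers minus that in Gcn2-/- livers was 1.77 ± 1.36, over both limits. Under ASNase, Atf4-/- and Gcn2-/- livers differed by 1.59 ± 0.99, but the intervals overlapped, at 37.2 against 37.6 FPKM.

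The ratio of G0s2 to Pnpla2 sets inhibitor against enzyme at the level of RNA and was looked at after the values had been seen. With PBS this ratio stood at 1.27 in WT, 1.86 in Gcn2-/- and 0.834 in Atf4-/- livers, and with ASNase 1.83, 0.960 and 0.168 in the same strains. The inhibitor's RNA was above that of the enzyme in 3 groups and lowest against it in Atf4-/- livers given ASNase. On the log2 scale this last ratio was -2.57 ± 1.08, and the other 5 lay between -0.26 and 0.90 with errors of 0.89 to 0.93. Abhd5, the activator of ATGL, was at 13.4 to 18.4 FPKM in all 6 groups with overlapping intervals. Its ratio to Pnpla2 was 0.681 in Gcn2-/- ASNase and 0.169 in Atf4-/- ASNase livers, and 0.301 to 0.453 in the others.

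**Figure D2:**
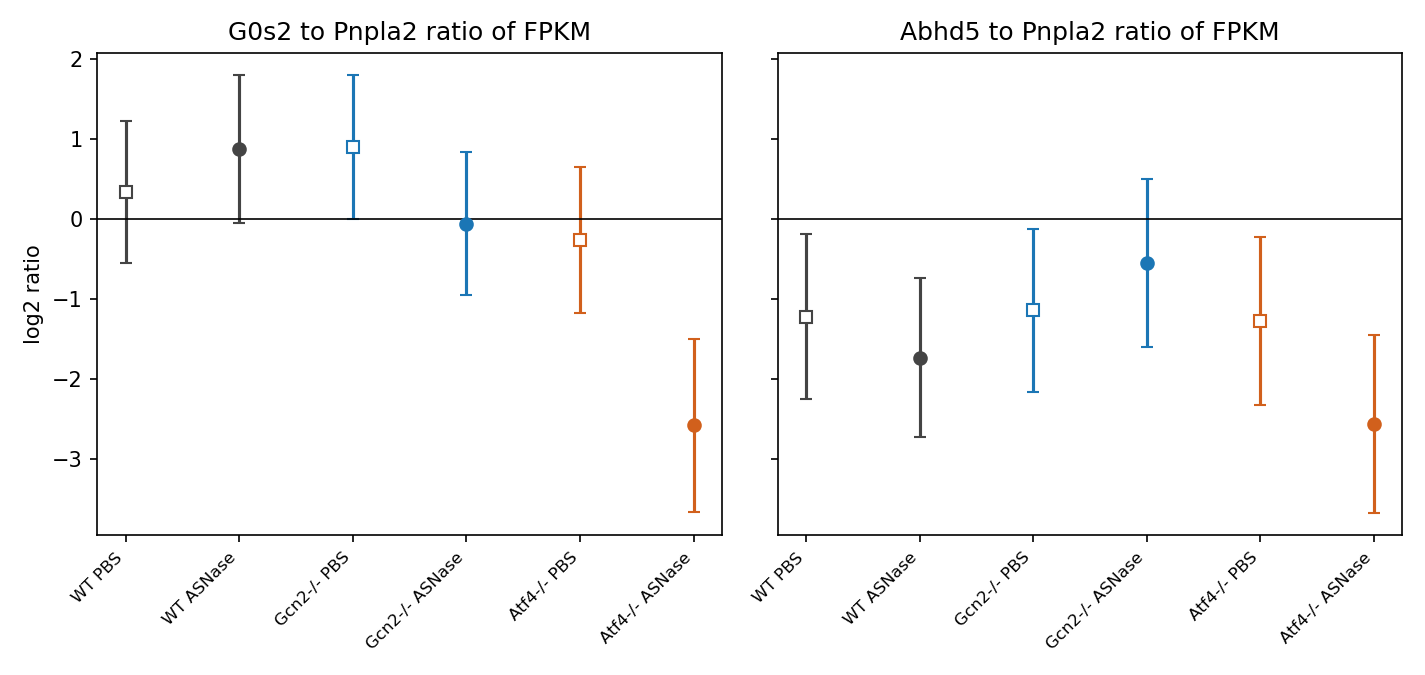
Log2 ratio of the FPKM of G0s2 (left) and of Abhd5 (right) to that of Pnpla2 in each group, with the combined error of both values as bars; open squares are PBS and filled circles ASNase. For G0s2 the Atf4-/- ASNase group lies at -2.57 and the other 5 groups between -0.26 and 0.90.

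Lipe (ENSMUSG00000003123, chr7:25379527-25398710, minus strand), the lipase of the next step, varied least of the 10 genes, with a log2 range of 0.89 over the 6 groups. With PBS it had 5.27 FPKM (2.83 to 7.71) in WT, 4.74 FPKM (2.51 to 6.96) in Gcn2-/- and 4.39 FPKM (2.32 to 6.46) in Atf4-/- livers. With ASNase it had 5.82 FPKM (3.18 to 8.47), 3.93 FPKM (2.06 to 5.79) and 3.11 FPKM (1.57 to 4.64) in the same strains. No pair of groups had separate intervals, and 15.6% of its exon bases are shared with a gene on the other strand. Pnpla3 (ENSMUSG00000041653, chr15:84167837-84187236, plus strand), a relative of ATGL known as a locus of fatty liver, was at or below 0.814 FPKM in all groups. That value, of WT PBS livers (0.288 to 1.34), was separate only from the 0.125 FPKM (0.0154 to 0.234) of Atf4-/- ASNase livers, and neither reaches the FPKM limit for a call.

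**Figure D3:**
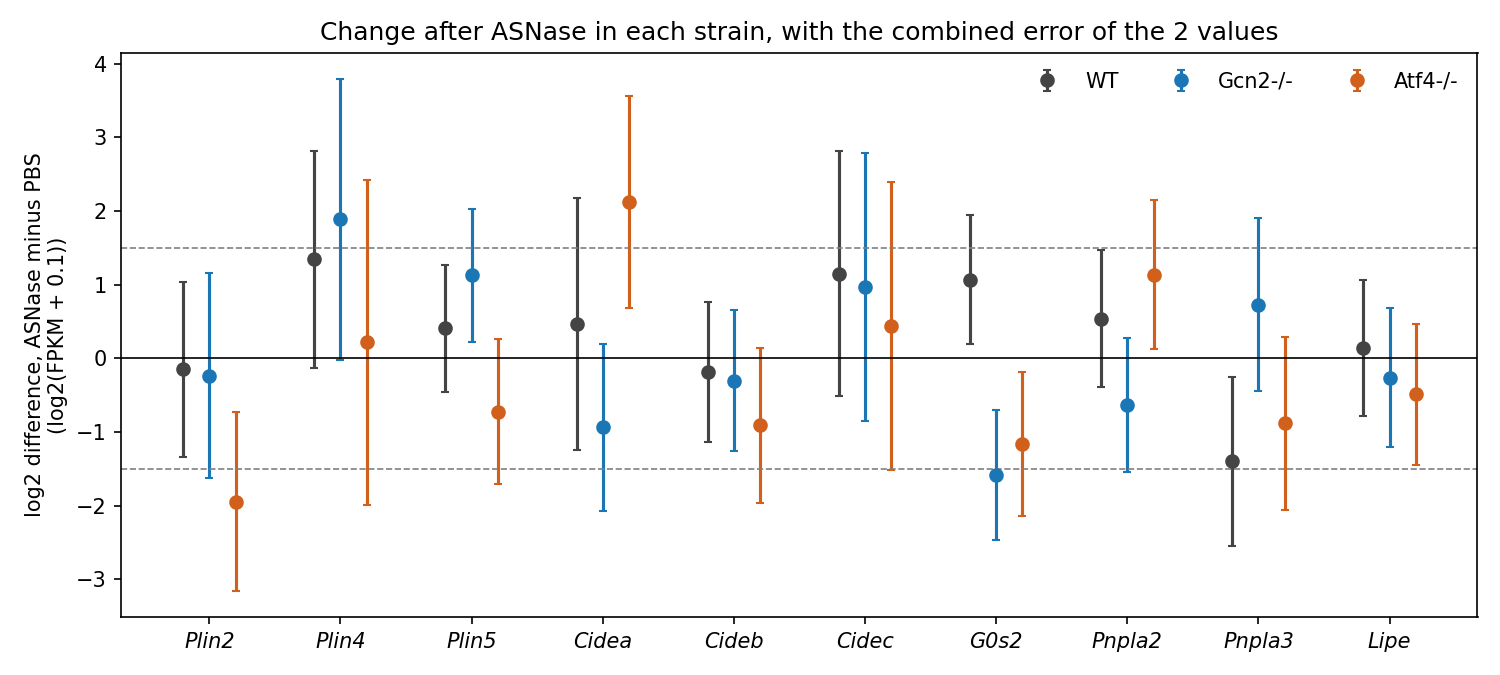
Log2 difference of FPKM, ASNase minus PBS, of each gene in WT, Gcn2-/- and Atf4-/- livers, with the combined error of the 2 values as bars and dashed lines at the limit of 1.5 in either direction. G0s2 is at 1.07 in WT livers and at -1.59 and -1.17 in Gcn2-/- and Atf4-/- livers, and Plin2 is at -1.95 in Atf4-/- livers, where Pnpla2 is at 1.14.

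Counted together, few of the 10 genes were called, and each count stands beside the share of all eligible genes called by the same rule. After ASNase, 0 of the 10 were called in WT livers (0.881% of all eligible genes), 1 in Gcn2-/- livers (G0s2, 3.69% of all) and 0 in Atf4-/- livers (7.37% of all). Under PBS, 0 were called between Gcn2-/- and WT livers (1.04% of all), 0 between Atf4-/- and WT livers (1.12% of all) and 0 between Atf4-/- and Gcn2-/- livers (0.976% of all). Under ASNase, 1 was called between Gcn2-/- and WT livers (G0s2, 4.41% of all), 2 between Atf4-/- and WT livers (Plin5 and G0s2, 8.25% of all), and 1 between Atf4-/- and Gcn2-/- livers (Plin5, 3.19% of all). All of these calls were downward. The number of the 10 that were eligible ran from 6 to 8, so that a count of 1 or 2 is a statement about those genes and not about the whole group.

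For the size of the ASNase response, 1 gene differed between Gcn2-/- and WT livers (G0s2), where 5.57% of all eligible genes did. Between Atf4-/- and WT livers 2 differed, Plin2 (-1.79 ± 1.71) and G0s2, against 8.15% of all. Between Atf4-/- and Gcn2-/- livers 2 differed, Plin5 (-1.85 ± 1.34) and Pnpla2, against 4.73% of all. Plin2 was only just over its error. The median difference after ASNase of all 10 genes, those too low to be eligible included, lay at 0.44 in WT, -0.25 in Gcn2-/- and -0.61 in Atf4-/- livers. Over the 8, 7 and 6 of them that were eligible it lay at 0.47, -0.26 and -0.82, where the median of all eligible genes was -0.01, 0.02 and 0.08. By sign alone, 6 of the 8 were higher in WT, 2 of the 7 in Gcn2-/- and 1 of the 6 (Pnpla2) in Atf4-/- livers. Since the filter itself depends on the values, these are descriptions. The comparisons with WT under ASNase share the WT ASNase group, and those of the responses share the WT groups.

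Other genes of the same processes are given by list. Of all eligible genes, 0.881% were called after ASNase in WT, 3.69% in Gcn2-/- and 7.37% in Atf4-/- livers. Of 8 other lipolysis genes, 0 were called after ASNase in WT and in Gcn2-/- livers, and in Atf4-/- livers 5 fell and 1 rose. In Atf4-/- livers Mgll, which frees the last fatty acid, went from 39.8 FPKM (21.9 to 57.8) to 9.03 FPKM (4.42 to 13.6). Ces1d, a carboxylesterase that hydrolyses stored triglyceride and belongs to a family of close copies among which reads may be split, went from 355 FPKM (68.0 to 642) to 13.0 FPKM (3.66 to 22.3). Aadac, a lipase of the endoplasmic reticulum, went from 432 FPKM (168 to 696) to 82.0 FPKM (35.1 to 129), and hepatic lipase (Lipc) from 103 FPKM (56.2 to 150) to 9.32 FPKM (5.24 to 13.4). Lipoprotein lipase (Lpl), which acts on circulating triglyceride, rose from 7.48 FPKM (4.07 to 10.9) to 40.2 FPKM (17.7 to 62.8). The list's median difference stood at -0.12 in WT, -1.21 in Gcn2-/- and -1.93 in Atf4-/- mice. In the last strain Pnpla2 and Lipe were at 1.14 and -0.49.

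Of 14 other droplet genes, 0 were called after ASNase in WT and Gcn2-/- livers. In Atf4-/- livers 1 of the 12 eligible was, where 7.37% of all eligible genes were. A count of 1 is a statement about that gene and not about the list. It was Hsd17b11, a droplet dehydrogenase, which fell from 92.6 FPKM (52.5 to 133) to 24.7 FPKM (14.5 to 34.9). Plin3, the perilipin found in most cells, had 19.7 FPKM (11.6 to 27.7) and 8.59 FPKM (4.82 to 12.4) in Atf4-/- livers with PBS and ASNase, and 18.6 to 25.1 FPKM in the other 4 groups. Plin2, Plin3 and Plin5 thus each had their lowest value in the Atf4-/- ASNase group. Of 13 genes of triglyceride synthesis, 0 were called after ASNase in any strain, and Dgat2, which makes the last bond, was at 247 to 386 FPKM in all groups. Between strains, Lpin1, a phosphatase of the synthesis pathway, was lower in Atf4-/- than in WT livers under ASNase, at 19.2 FPKM (10.7 to 27.6) against 67.9 FPKM (31.4 to 104), and was called. Its ASNase response and that of Lpin2 differed between Atf4-/- and WT livers, by -2.10 ± 1.43 and -2.71 ± 2.47. Both were named after their values had been seen.

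Of 9 regulators known to act on these genes, 0 were called after ASNase in WT and Gcn2-/- livers. In Atf4-/- livers 2 of the 8 eligible were, where 7.37% of all eligible genes were. Creb3l3, a fasting factor that works with PPARα, fell from 125 FPKM (58.2 to 192) to 26.0 FPKM (14.0 to 38.1), and Insig1, which holds back SREBP, fell from 128 FPKM (66.8 to 189) to 20.4 FPKM (11.9 to 28.9). Ppara had 43.8 FPKM (9.53 to 78.1) and 8.52 FPKM (1.68 to 15.4) in Atf4-/- livers, with overlapping intervals, and 39.8 to 63.7 FPKM in the other 4 groups with lower bounds of 0. The difference of its responses between Atf4-/- and WT livers was -2.86 ± 2.65.

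**Figure D4:**
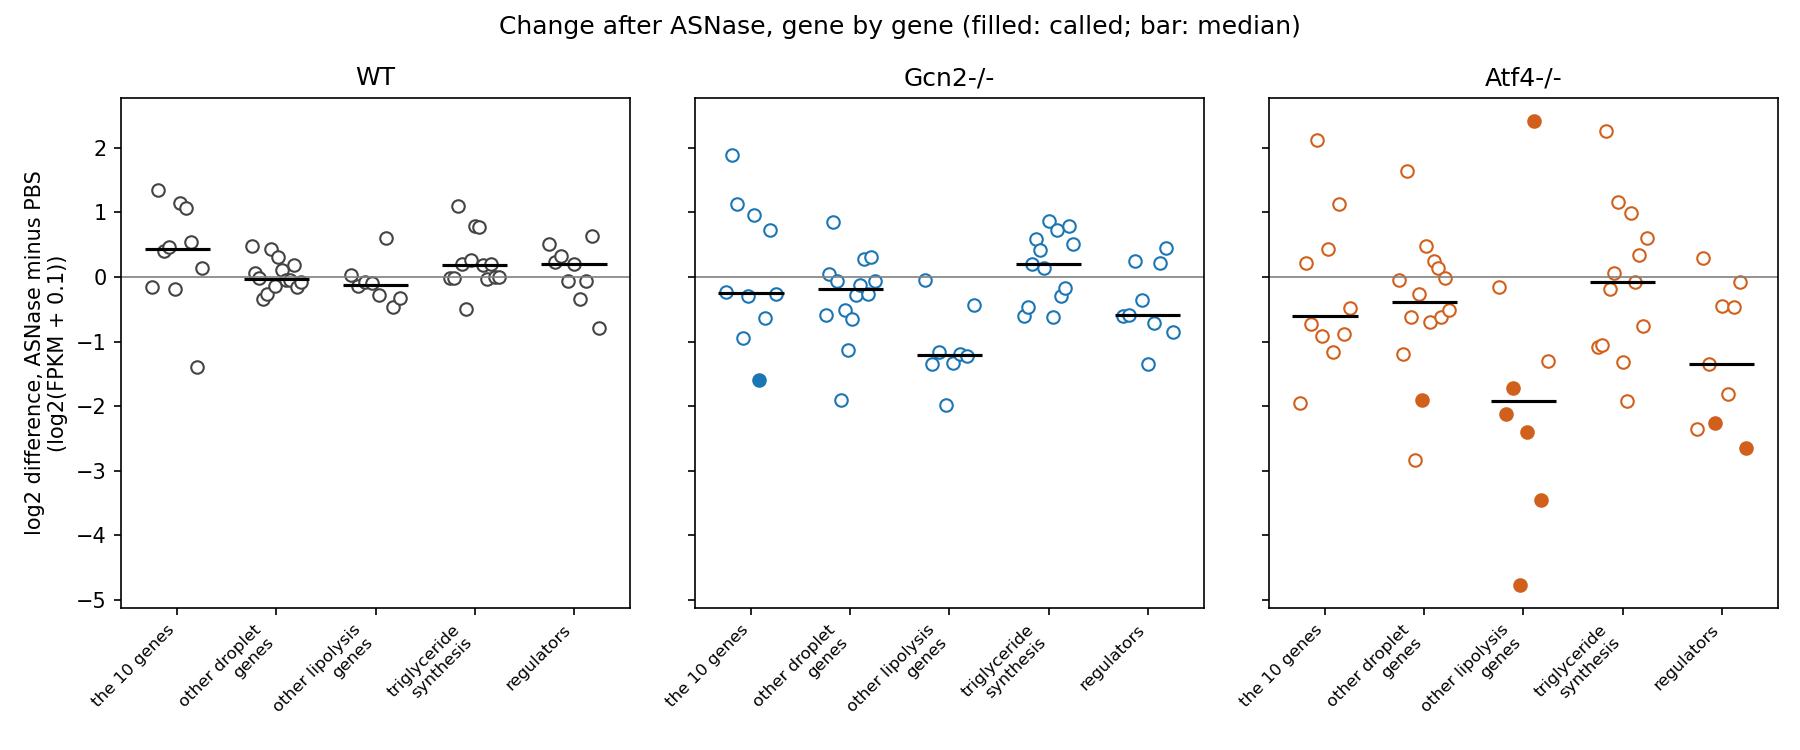
Log2 difference of FPKM, ASNase minus PBS, for each gene of 5 lists in WT, Gcn2-/- and Atf4-/- livers; filled circles are called genes, open circles are not, and bars are list medians over all genes of a list. The 10 genes have medians of 0.44, -0.25 and -0.61, and the other lipolysis genes -0.12, -1.21 and -1.93.

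Several of the 10 genes are also expressed in fat and muscle, and the markers of these tissues were uneven over the groups. The summed FPKM of 10 skeletal muscle markers with PBS reached 886 in WT, 5.98 in Gcn2-/- and 69.6 in Atf4-/- livers, and with ASNase 1251, 9.16 and 147 in the same strains. The sum of 6 white adipose markers was 58.2 and 64.0 in WT, 20.5 and 75.4 in Gcn2-/- and 21.2 and 38.2 in Atf4-/- livers. Most of it was Fabp4, which other cells express, whereas the fat-specific Adipoq was at 1.35 and 1.96 FPKM in WT livers and at or below 0.350 FPKM elsewhere. The sum of 5 brown adipose markers ran from 2.37 to 91.0, with Ucp1 at or below 0.569, Dio2 at or below 0.0502 and Zic1 at or below 0.0650 FPKM. At its highest, in WT PBS livers, most of it was Elovl3 (54.0 FPKM) and Cox7a1 (36.4 FPKM). The sum thus followed Elovl3 and Cox7a1 and was not read as an amount of brown fat. For 6 adrenal cortex markers the sum was 11.2 in WT ASNase livers and at most 1.80 elsewhere. Hepatocyte markers with an estimate had a median difference after ASNase of -0.26 in WT, -1.18 in Gcn2-/- and -0.40 in Atf4-/- livers. By sign, 5 were lower and 2 higher in WT and in Gcn2-/- livers. In Atf4-/- livers 4 were lower and 2 higher. The bearing of this on the 10 genes was not tested. The sum of 7 stellate cell markers was 94.0 to 157 and that of 6 macrophage markers 121 to 244.

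Single macrophage markers did not follow this sum. In WT livers all 6 were lower after ASNase, with a median difference of -0.69, and 0 were called. In the mutant strains, where G0s2 fell (Gcn2-/-) and Plin2 and Plin5 had their lowest values (Atf4-/-), they went different ways. Marco, a scavenger receptor, rose from 8.32 FPKM (4.40 to 12.2) to 118 FPKM (62.4 to 173) in Gcn2-/- livers and from 9.22 FPKM (4.60 to 13.8) to 67.3 FPKM (28.8 to 106) in Atf4-/- livers. In WT livers it had 5.69 and 3.45 FPKM. Clec4f, the receptor that defines Kupffer cells, went from 67.3 FPKM (27.6 to 107) to 15.9 FPKM (0.574 to 31.2) in Gcn2-/- and from 102 FPKM (37.0 to 167) to 30.1 FPKM (10.1 to 50.1) in Atf4-/- livers, with overlapping intervals. Cd5l, another Kupffer cell gene, fell in Atf4-/- livers from 91.6 FPKM (49.6 to 134) to 31.3 FPKM (16.9 to 45.7). In Gcn2-/- livers Cd5l went from 46.6 to 44.4 FPKM. Emr1 went from 5.17 FPKM (2.88 to 7.46) to 12.9 FPKM (7.60 to 18.1) in Gcn2-/- livers. In Atf4-/- livers it went from 10.9 to 4.56 FPKM, and neither change was called. Cd68 and Csf1r differed by 0.43 and 0.33 in Gcn2-/- and by -0.49 and -0.52 in Atf4-/- livers. The part of these cells in the values of the 10 genes was not tested.

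Plin4, Cidec, Lipe and G0s2 had their highest values in WT ASNase livers. This group had the highest muscle sum, 1251, and Adipoq at 1.96 FPKM. The next highest G0s2 value, 75.7 FPKM, was in Gcn2-/- PBS livers, with a muscle sum of 5.98 and Adipoq at 0.178 FPKM. Plin5 had its highest value in Gcn2-/- ASNase livers, with a muscle sum of 9.16 and Adipoq at 0.0338 FPKM. The part of muscle or fat tissue in any of these values, those of WT ASNase livers included, was not tested. In bulk liver, fewer cells of a type and less RNA per cell cannot be told apart.

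**Figure D5:**
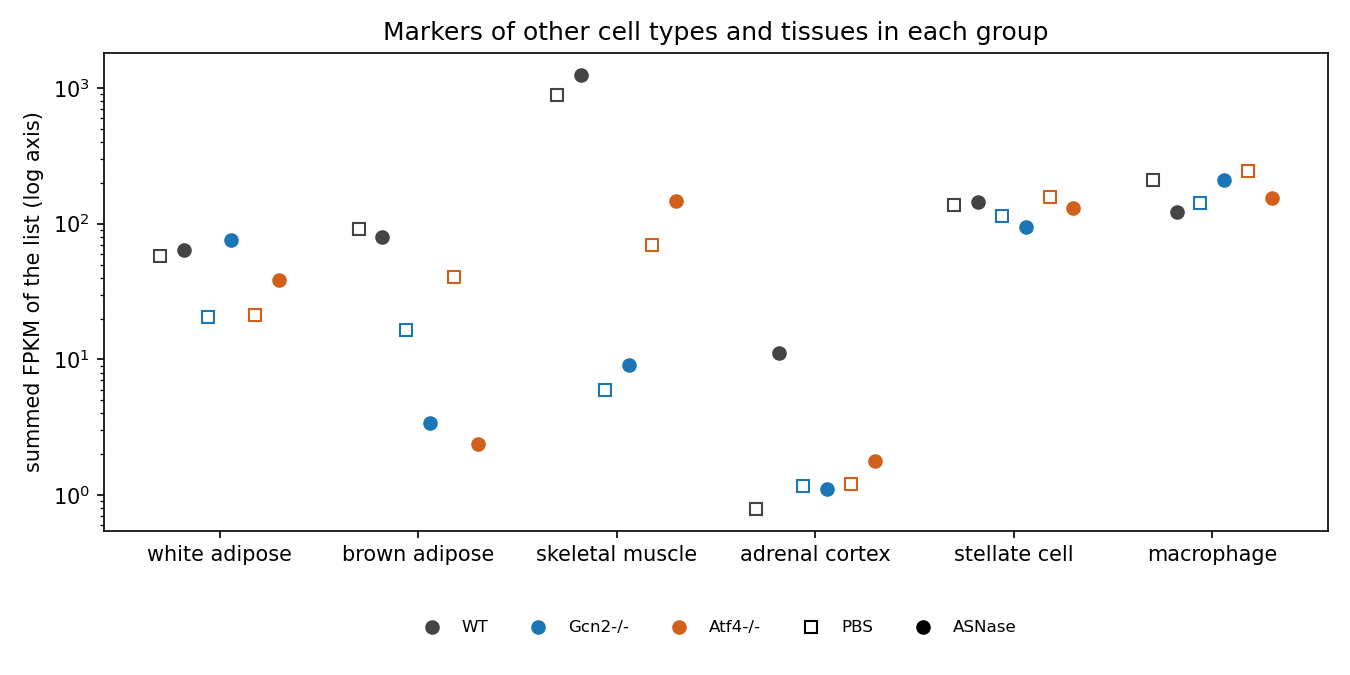
Summed FPKM (log axis) of 6 lists of markers of other cell types and tissues in each group; open squares are PBS and filled circles ASNase. Skeletal muscle markers reach 1251 in WT ASNase livers and stay at or below 9.16 in Gcn2-/- livers.

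For 6 of the 10 genes, those over 3 FPKM with a log2 range over 1.5, the genes of most similar pattern were sought among 9814 genes as the smallest root mean square difference of log2 values over the 6 groups, after centring. For Plin2 these were Aldoc (0.14), Gm11752 (0.18) and Creb3l3 (0.23). For Plin5 they were Ndufa4l2 (0.08), Anxa2 (0.16) and St3gal5 (0.21), and for Pnpla2 Xpot (0.13), Ank (0.15) and Hspa9 (0.15). The match for Plin2 lies in the low Atf4-/- ASNase value, and that for Pnpla2 in the high value of the same group. For G0s2 they were Spc24 (0.27), Accn5 (0.28) and Cdk1 (0.31), for Plin4 Tppp3 (0.36), Cidec (0.37) and Gys1 (0.40), and for Cidec Gm15622 (0.26), Camk2b (0.28) and Me3 (0.29). With 6 values per gene, each from the same libraries, such likeness is a description.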

How the data were processed

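Liver poly-A RNA of 18 mice was sequenced. The authors prepared unstranded libraries, used TopHat with Bowtie for alignment (mm10), Cufflinks and Cuffmerge for assembly, and Cuffdiff for quantification. The gene annotation is not given in the sources used here. The table the authors deposited holds FPKM with lower and upper bounds, also in FPKM, and a status, 1 value for each of 6 groups estimated from 3 libraries. It holds no column of the authors' comparisons, and 0 value columns were left outside the map to groups. In 45 genes at least 1 group had no valid estimate.

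The planned limma fit for single libraries could not be fitted to such values. Groups were compared with Python 3.11.15, numpy 2.4.6 and pandas 2.3.3 (figures with matplotlib 3.10.9) on log2(FPKM + 0.1). A gene was eligible with a status of OK and a value above 0 in both groups and over 3 FPKM in either. A call needed a log2 difference beyond 1.5 and non-overlapping intervals. ASNase responses were said to differ when they lay more than 1.5 apart and more than the errors of the 4 values combined in quadrature, each error being the distance from value to bound divided by (FPKM + 0.1) and by the natural log of 2. Calls were made over all 37303 genes in 9 comparisons of groups, 4 of them added after the values had been seen, and in 3 of responses. No p-value was computed.

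All 10 genes are named. Of the other lists, genes called in at least 1 of the 5 planned comparisons were named, up to 4 per list by size of difference, with Ppara, Abhd5, Mgll, Plin3 and Dgat2. The 3 most similar patterns were named per gene. The genes and lists were chosen with earlier results of these data known. Gene positions and overlaps come from GENCODE on GRCm38, and 250 bases of promoter per RefSeq start from GRCm38.p6. Alternatives were other pseudocounts, FPKM and fold limits, no or another interval condition and median-ratio scaling.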

Additional observations from a re-analysis of the deposited data

Results flagged for a closer look

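For 3 of the 10 genes, the ASNase responses had opposite signs between strains. They differed by over 1.5 and by more than the combined error of the 4 values. Only genes with a value over 3 FPKM in at least 1 of the groups compared were considered. By these limits, whatever the sign, 5.57% of all eligible genes differed between Gcn2-/- and WT livers. The share was 8.15% for Atf4-/- against WT and 4.73% for Atf4-/- against Gcn2-/- livers. How many of all genes also had opposite signs was not counted, so the 3 are a statement about single genes. None of the differences below was tested over mice. In those from WT, the share of males also differed between WT PBS and WT ASNase. For G0s2 the change was 1.07 ± 0.88 in WT livers and -1.59 ± 0.88 in Gcn2-/- livers, a difference of -2.65 ± 1.25. Against the change of -1.17 ± 0.98 in Atf4-/- livers, the difference from WT was -2.23 ± 1.32. For Plin5 the change was 1.13 ± 0.91 in Gcn2-/- and -0.72 ± 0.98 in Atf4-/- livers, a difference of -1.85 ± 1.34. For Pnpla2 the change was -0.64 ± 0.91 in Gcn2-/- and 1.14 ± 1.01 in Atf4-/- livers, a difference of 1.77 ± 1.36. The negative changes of Plin5 and Pnpla2 were within their error, so an opposite direction is not shown for these genes. Of the single changes only that of G0s2 in Gcn2-/- livers was called.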

How the results depend on the processing

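Counts of called genes among the 10 moved by over 1.5 times, or from 0, in 9 of 93 settings. After ASNase in Atf4-/- livers the count was 1 (Plin2), not 0, with a log2 difference over the combined error as the condition, with no interval condition and with median-ratio scaling, where 10.4%, 12.2% and 7.37% of all eligible genes were called. Under ASNase, Atf4-/- against WT gave 1 (G0s2) with a pseudocount of 1, where 7.43% of all eligible genes were called, and 4 (Plin2, Plin4, Plin5 and G0s2) with no interval condition, where 13.3% were. Atf4-/- against Gcn2-/- gave 3 (Plin2, Plin5 and Pnpla2) with the combined error (4.99% of all) and with no interval condition (6.21% of all), and under PBS 1 (G0s2) with a log2 limit of 1 (1.12% of all). The response of Gcn2-/- against WT gave 2 (G0s2 and Pnpla3) with no filter on low values (4.17% of all). Beyond the change of rule itself, the cause was not tested. G0s2 was called after ASNase in Gcn2-/- livers, and against WT under ASNase in both mutant strains, with each of the 8 alternatives. Of 270 values of single genes under an alternative, 262 moved by less than their error and 8, all of Cidea, moved by more. The alternatives here were a pseudocount of 1, no pseudocount and median-ratio scaling, whose factors were 0.980 to 1.02. For genes well above the pseudocount, such settings could hardly move a value beyond errors this wide. The count is thus no check of stability.

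No paired analysis was possible because the table holds 1 value per group and its columns carry no replicate numbers. Leaving out a replicate was not run for the same reason. The FPKM values carry no read counts, and the wide intervals limit calls to large differences.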
